A study of Rattus norvegicus with 17 samples.

Results

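The miR-17-92 and miR-106b-25 clusters were followed in the ventral prostate (VP) of male rats through 10 mature miRNAs, of 761 rat miRNA entries counted in each small RNA library. The members were named as the mature miRNAs of both clusters, a rule that uses no measured value: rno-miR-17-5p, rno-miR-18a-5p, rno-miR-19a-3p, rno-miR-20a-5p, rno-miR-19b-3p and, last on the transcript, rno-miR-92a-3p of the first cluster, and rno-miR-106b-5p, rno-miR-106b-3p, rno-miR-93-5p and rno-miR-25-3p of the second. The rat prefix rno is left out from here on. All 10 passed the filter on low counts in the fit of all libraries, which left 467 rat miRNAs. The offspring were of Sprague Dawley dams given isocaloric diets during pregnancy and suckling, with 17% protein in the control group (CTR) and 6% protein in the group named for Gestational and Lactational Low Protein (GLLP). At postnatal day (PND) 21 there were 4 CTR and 4 GLLP libraries, and at PND 540 there were 5 CTR and 4 GLLP libraries, 17 in all. The study's methods describe 1 male per litter for each age, so the 2 ages are different animals, and they do not state that tissue was pooled.

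The miR-17-92 cluster is a single primary transcript that carries several miRNA hairpins, and it is known as an oncogenic and developmental cluster that is activated by MYC and promotes proliferation. The miR-106b-25 cluster is its paralog, embedded in an intron of Mcm7, a helicase subunit used in DNA replication. Members of both clusters with the same seed, the stretch that pairs with target messages, repress overlapping sets of messages, among them the cell cycle inhibitor Cdkn1a. After transcription each hairpin is cut out and 1 or both of its arms are kept as mature miRNA, so mature levels of neighbours on a transcript need not be equal.

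The mature sequences are shown because the comparison between the clusters below pairs members by seed. All 10 were matched by name to RefSeq (GRCr8), and bases 2 to 8, the seed, are in capitals. The AAAGUGC seed is held by 4 members, 2 from each cluster.
miR-17-5p: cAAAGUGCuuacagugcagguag
miR-20a-5p: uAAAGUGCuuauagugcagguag
miR-106b-5p: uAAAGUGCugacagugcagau
miR-93-5p: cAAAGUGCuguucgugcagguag
The AUUGCAC seed is held by 1 member of each cluster.
miR-92a-3p: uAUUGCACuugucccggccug
miR-25-3p: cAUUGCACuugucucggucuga
The remaining members are both miR-19 forms with the GUGCAAA seed, miR-18a-5p with AAGGUGC and the second arm of the miR-106b hairpin with CGCACUG.
miR-19a-3p: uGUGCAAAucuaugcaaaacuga
miR-19b-3p: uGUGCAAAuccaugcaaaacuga
miR-18a-5p: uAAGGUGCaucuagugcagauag
miR-106b-3p: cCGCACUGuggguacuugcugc
Counting from the 5′ end, miR-19a-3p and miR-19b-3p differ by U11C alone, miR-17-5p and miR-20a-5p by C1U and C12U, and miR-92a-3p and miR-25-3p by U1C, C14U and C18U over the 21 bases both have.

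In the GRCr8 assembly the 6 hairpins of miR-17-92 lie on the plus strand at chr15:98587848-98588632, a span of 785 bases. The 3 hairpins of miR-106b-25 lie on the minus strand at chr12:22156641-22157134, a span of 494 bases inside Mcm7, itself annotated at chr12:22155921-22163320. Another paralog cluster lies at chrX:137342777-137343647. RefSeq gives miR-17-5p, miR-19b-3p and miR-92a-3p 2 loci each, 1 on chromosome 15 and 1 on chromosome X. Reads of these 3 mature miRNAs therefore cannot be assigned to 1 locus from the mature sequence.

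The deposited total counts were between 6369707 and 28814812 per library, and the 3 most abundant miRNAs took from 48.2% to 73.0% of the miRNA counts. Library size factors differed by age. The TMM factors, which correct for a few abundant miRNAs taking a large share of reads, were between 1.39 and 2.06 at PND 21 and between 0.394 and 0.929 at PND 540. Levels are given as CPM, counts scaled to a common library total, after TMM, and within-library ratios, which need no such factor, are given beside them. At PND 540, CTR replicate 1 and GLLP replicates 1 and 2 held 2.27%, 2.67% and 2.48% of counts on snoRNA and snRNA, against 0.327% to 0.901% in the other 6 libraries of that age. In those 3 libraries miRNA counts also rose with GC content, by 0.812, 0.831 and 0.637 log2 units per 10 percentage points of GC, against -0.522 to 0.00488 in the other 6. The authors' library numbers are 13 to 20 at PND 21 and 3 to 7 or 21 to 24 at PND 540, so age and library number set cannot be told apart. The labelled tissue was checked against 7 prostate epithelium miRNAs, whose summed level was between 14958 and 38165 CPM at PND 21 and between 41787 and 93994 CPM at PND 540. The diets did not overlap in it at PND 21, with 31064 to 38165 CPM in CTR and 14958 to 27308 CPM in GLLP. With age, 4 of these 7 were called higher and none lower by edgeR's adjusted p, as were 4 of 5 leukocyte miRNAs. The summed level of the leukocyte miRNAs was between 199 and 281 CPM at PND 21 and between 651 and 1126 CPM at PND 540. Over all 467 tested miRNAs, 30% were called higher and 24% lower with age. Of 4 smooth muscle and stroma miRNAs 1 was called lower. Their summed level was between 100901 and 207638 CPM at PND 21 and between 113616 and 795131 CPM at PND 540, with medians of 173897 and 262780 CPM. Of 2 tested striated muscle miRNAs 1, miR-206-3p, was called lower, and of 2 endothelium miRNAs none was called. Within GLLP miR-206-3p had a log2 fold change of -6.08 (adjusted p = 0.00303, edgeR), and within CTR -1.55 (adjusted p = 0.316, edgeR). In such bulk tissue, fewer cells of a type and less RNA per cell cannot be told apart. The part of cell makeup in the members' age or diet differences was not tested.

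Between PND 21 and PND 540, miR-92a-3p was higher and miR-106b-5p lower in the older VP after TMM scaling, and the other 8 members did not pass the test. The fold change was 2.74 on the log2 scale for miR-92a-3p (SE 0.50, 95% interval 1.69 to 3.78, adjusted p = 0.000121, edgeR's quasi-likelihood F test, adjusted by Benjamini-Hochberg over the 467 miRNAs). It was -1.01 for miR-106b-5p (SE 0.32, 95% interval -1.68 to -0.33, adjusted p = 0.0122, same test). The count of 1 member higher and 1 lower of 10 stands against a background of 30% of the 467 tested miRNAs called higher and 24% called lower with age. The median change over the 10 members was 0.17 and over all tested miRNAs 0.27.

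**Figure D1:**
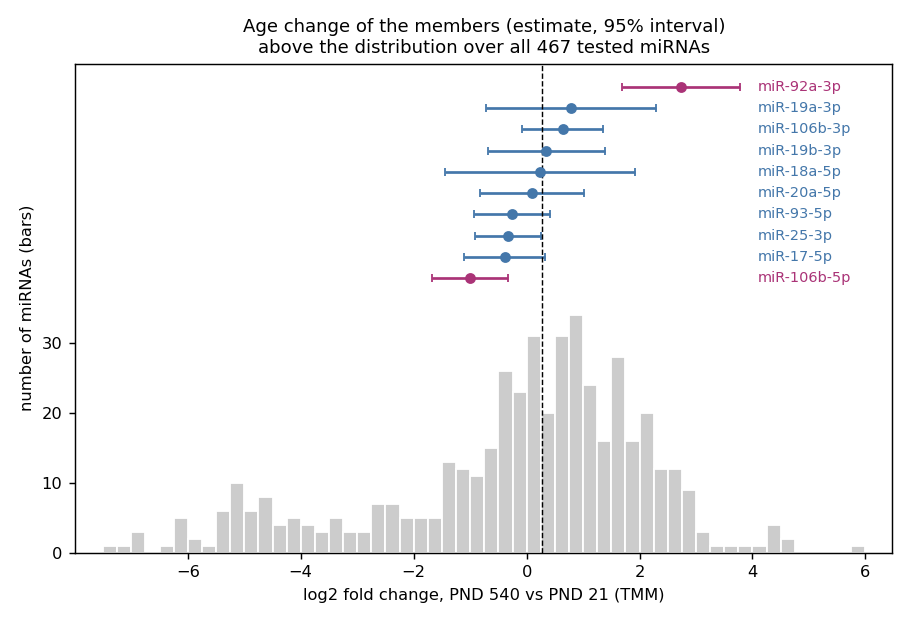
The horizontal axis is the log2 fold change between PND 540 and PND 21, the bars count all 467 tested miRNAs, points are the 10 members and horizontal lines their 95% intervals, with adjusted p under 0.05 in purple and the dashed line at the median of 0.27. The interval of miR-92a-3p lies wholly above 0, that of miR-106b-5p wholly below, and those of the other 8 members include 0.

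miR-92a-3p, the last hairpin of miR-17-92 and known to repress an integrin message and vessel growth in endothelial cells, had the clearest age pattern. At PND 21 the CTR libraries, in replicate order, held 1697, 1434, 1823 and 1585 CPM of it, and the GLLP libraries 1655, 2113, 2150 and 1461 CPM. At PND 540 the CTR libraries held 23635, 4588, 4436, 5953 and 10093 CPM, and the GLLP libraries 16301, 33217, 2598 and 2826 CPM. Every PND 540 library was above every PND 21 library, a separation seen in the same direction for 8.35% of tested miRNAs. The difference of mean log2 level was 2.19 (exact two-sided permutation test over libraries, p = 0.000206), where 57% of tested miRNAs had an exact p under 0.05.

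The size of that difference rested on few libraries. The highest levels, 16301 to 33217 CPM, were in the 3 libraries with the high snoRNA and snRNA share, and without them the fold change of miR-92a-3p was 0.85 on the log2 scale (SE 0.21, adjusted p = 0.00307, edgeR). It was 1.05 with the PND 540 libraries numbered 21 to 24 alone and 3.14 with those numbered 3 to 7 alone. With each library's GC dependence taken out it was 2.37. Without the 3 libraries and CTR replicate 5 together it was 0.74 (SE 0.17, adjusted p = 0.00133, edgeR).

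The direction in the remaining 5 older libraries rested on the TMM factors. Scaled by total miRNA counts without such a factor, miR-92a-3p was between 2354 and 3951 CPM at PND 21, at 20195, 15145 and 29927 CPM in CTR replicate 1 and GLLP replicates 1 and 2 of PND 540, at 3972 CPM in CTR replicate 5, and between 1677 and 2934 CPM in the other 5. On that scale the log2 fold change over all libraries was 1.49 (adjusted p = 0.029, edgeR), but it was -0.53 without the 3 libraries and -0.65 without those and CTR replicate 5 (adjusted p = 0.045 and 0.00288, edgeR), where the medians of all tested miRNAs were -1.58 and -1.66. Of 34 alternatives, these 2 called miR-92a-3p lower and the other 32 called it higher.

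The other arm of the same chromosome 15 hairpin, miR-92a-1-5p, also rose, by a log2 fold change of 2.80 (SE 0.53, adjusted p = 0.000162, edgeR). Its levels were between 1.63 and 4.62 CPM at PND 21 and between 3.25 and 57.7 CPM at PND 540, and the ages overlapped. Its highest levels, 23.3, 40.2 and 57.7 CPM, were in CTR replicate 1 and GLLP replicates 1 and 2, the libraries where miR-92a-3p was highest. Scaled by total miRNA counts without a TMM factor, its median was 5.34 CPM at PND 21 (2.56 to 8.49 CPM) and 5.68 CPM at PND 540 (1.95 to 52.0 CPM). The arm particular to the chromosome X hairpin, miR-92a-2-5p, had no count in any library, and the X cluster member miR-363-3p, with the same seed as miR-92a-3p, had a log2 fold change of -0.73 that did not pass the test (adjusted p = 0.112, edgeR).

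Relatives of miR-92a-3p that carry its seed but lie at other loci were measured as well. miR-92b-3p rose by 2.34 on the log2 scale (SE 0.57, adjusted p = 0.00195, edgeR) and miR-32-5p by 1.34 (SE 0.50, adjusted p = 0.0288, edgeR). miR-92b-3p, a GC-rich miRNA like miR-92a-3p, was at 59.8, 53.6 and 38.4 CPM in CTR replicate 1 and GLLP replicates 1 and 2 of PND 540 and between 3.63 and 17.3 CPM in the other 6. miR-32-5p, an AU-rich miRNA, showed the opposite order within PND 540, with 2.29, 3.08 and 3.21 CPM in those 3 libraries and 13.3 to 23.7 CPM in the other 6.
miR-92b-3p: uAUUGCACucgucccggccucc
miR-32-5p: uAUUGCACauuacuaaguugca
GC content is 63.6% for miR-92b-3p, 57.1% for miR-92a-3p and 31.8% for miR-32-5p.

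Of the 4 red blood cell miRNAs, miR-486 was high in the libraries where miR-92a-3p was high. miR-486 was at 139428, 41223 and 71501 CPM in CTR replicate 1 and GLLP replicates 1 and 2 of PND 540 and at 40381 CPM in CTR replicate 5, and at most 6323 CPM in every other library. miR-451-5p, the defining miRNA of red blood cells, was at 64.3, 16.03, 30.8 and 104 CPM in the same 4 libraries and between 32.2 and 117 CPM in the other 13. Between ages, miR-451-5p, miR-144-3p and miR-144-5p had log2 fold changes of -0.18, 0.50 and -0.23 (adjusted p = 0.689, 0.647 and 0.686, edgeR). The summed level of the 4 was between 1719 and 6426 CPM at PND 21 and between 3518 and 139496 CPM at PND 540. Its highest value was almost wholly miR-486, with 139428 CPM. The part of blood, GC dependence or snoRNA and snRNA content in the age difference of miR-92a-3p was not tested beyond the values given.

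**Figure D2:**
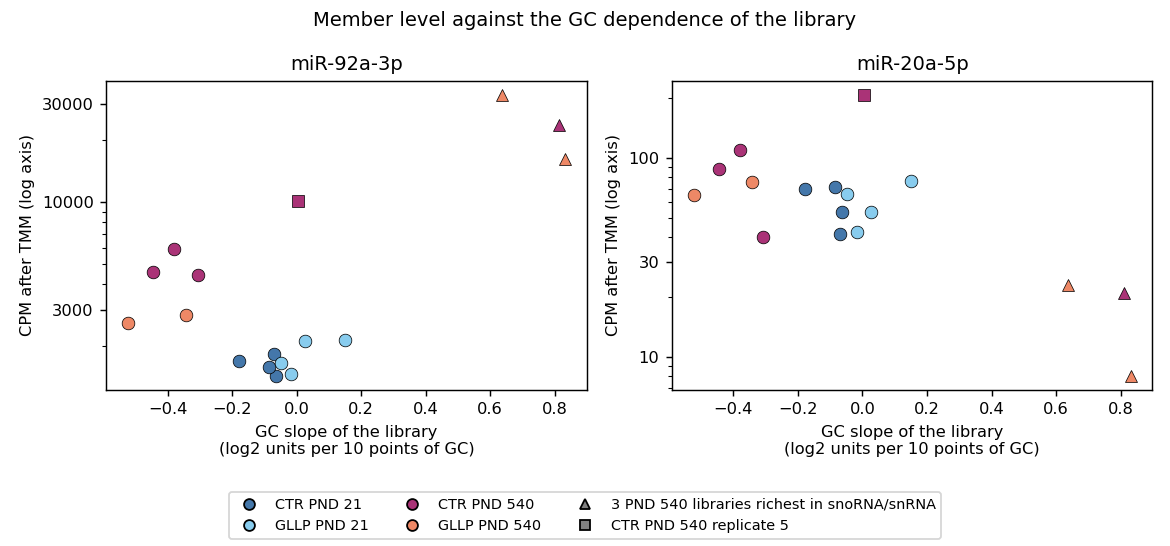
Levels of miR-92a-3p and miR-20a-5p (CPM after TMM, log axis) are plotted against the GC slope of each of the 17 libraries, in log2 units per 10 percentage points of GC. The 3 triangles at slopes of 0.637 to 0.831 have the highest miR-92a-3p levels and the lowest miR-20a-5p levels (8.06 to 23.1 CPM).

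miR-106b-5p, a member with the AAAGUGC seed that represses Cdkn1a, was the only member lower at PND 540 by the test. In replicate order, its PND 21 levels were 90.0, 120.5, 105 and 104 CPM for CTR, and 104, 103, 49.8 and 121 CPM for GLLP. The PND 540 levels were 34.4, 59.8, 56.0, 66.1 and 30.3 CPM for CTR, and 15.7, 34.2, 75.2 and 73.8 CPM for GLLP. All PND 540 libraries were below 7 of the 8 PND 21 libraries, and the ages overlapped through GLLP replicate 3 of PND 21. The exact permutation p over libraries was 0.00156. Under all 34 alternatives miR-106b-5p was called lower, with log2 fold changes from -2.62 to -0.93, and without the 3 libraries and CTR replicate 5 the value was -0.93 (adjusted p = 0.0032, edgeR).

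The other 3 members in Mcm7 did not pass the test over all libraries. miR-106b-3p, the second arm of the same hairpin, had a log2 fold change of 0.64 (95% interval -0.08 to 1.36, adjusted p = 0.123, edgeR). miR-93-5p, next on the transcript and sharing the seed of miR-106b-5p, had -0.26 (95% interval -0.93 to 0.42, adjusted p = 0.522). miR-25-3p, the most abundant of the 4, had -0.33 (95% interval -0.92 to 0.25, adjusted p = 0.33). miR-93-5p was between 237 and 358 CPM at PND 21 and between 234 and 359 CPM at PND 540, except for 35.0 CPM in CTR replicate 5. Without the 3 libraries and that replicate together, a setting added after seeing the data, miR-106b-3p, miR-93-5p and miR-25-3p were each called lower as well. Their log2 fold changes were -0.61, -0.46 and -0.50 (adjusted p = 0.00771, 0.0182 and 0.00981, edgeR). The direction of miR-106b-3p was then the reverse of that over all libraries. The share of all tested miRNAs called lower in that setting is not given here, and over all libraries it was 24%.

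miR-18a-5p, known to repress the estrogen receptor alpha message, was far higher in 1 older library than in the other 8. It was between 16.4 and 30.1 CPM in the 8 PND 21 libraries. Among the older CTR libraries it was 2.77, 6.27, 7.34, 10.3 and 457 CPM in replicate order, and among the older GLLP libraries 0.632, 2.67, 12.6 and 6.5 CPM. So 8 of 9 older libraries lay below every younger one, and CTR replicate 5 lay above all of them. The log2 fold change over all libraries was 0.24 (SE 0.80, adjusted p = 0.82, edgeR), and without CTR replicate 5 it was -1.69 (adjusted p = 0.0043, edgeR), the only call among the 17 fits that each left out 1 library. The sign over all libraries was not stable either. It also turned, with no call, without CTR replicate 1 or any 1 of the GLLP libraries of PND 540 (-0.26 to -0.015), and limma's weighting of libraries gave -1.64 with all 17 kept (adjusted p = 0.0367).

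The members of miR-17-92 upstream of miR-92a-3p did not pass the test. miR-17-5p had a log2 fold change of -0.38 (95% interval -1.10 to 0.33, adjusted p = 0.359, edgeR), and miR-20a-5p, which differs from it in 2 bases, had 0.09 (95% interval -0.83 to 1.01, adjusted p = 0.869). miR-17-5p was between 56.6 and 103 CPM at PND 21 and between 12.8 and 102 CPM at PND 540. miR-20a-5p was between 41.6 and 76.7 CPM at PND 21 and between 8.06 and 207 CPM at PND 540. Their extremes at PND 540 were opposite in 1 library, since CTR replicate 5 had the lowest miR-17-5p and the highest miR-20a-5p.

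Both miR-19 forms varied widely at each age. miR-19b-3p was between 21.2 and 186 CPM at PND 21 and between 23.4 and 234 CPM at PND 540, with a log2 fold change of 0.35 (95% interval -0.69 to 1.38, adjusted p = 0.571, edgeR). miR-19a-3p was near the bottom of the measurable range, from 1.36 to 11.03 CPM at PND 21 and from 0.0955 CPM, a single count in CTR replicate 1, to 30.3 CPM at PND 540. Its log2 fold change was 0.79 (95% interval -0.72 to 2.29, adjusted p = 0.371, edgeR).

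**Figure D3:**
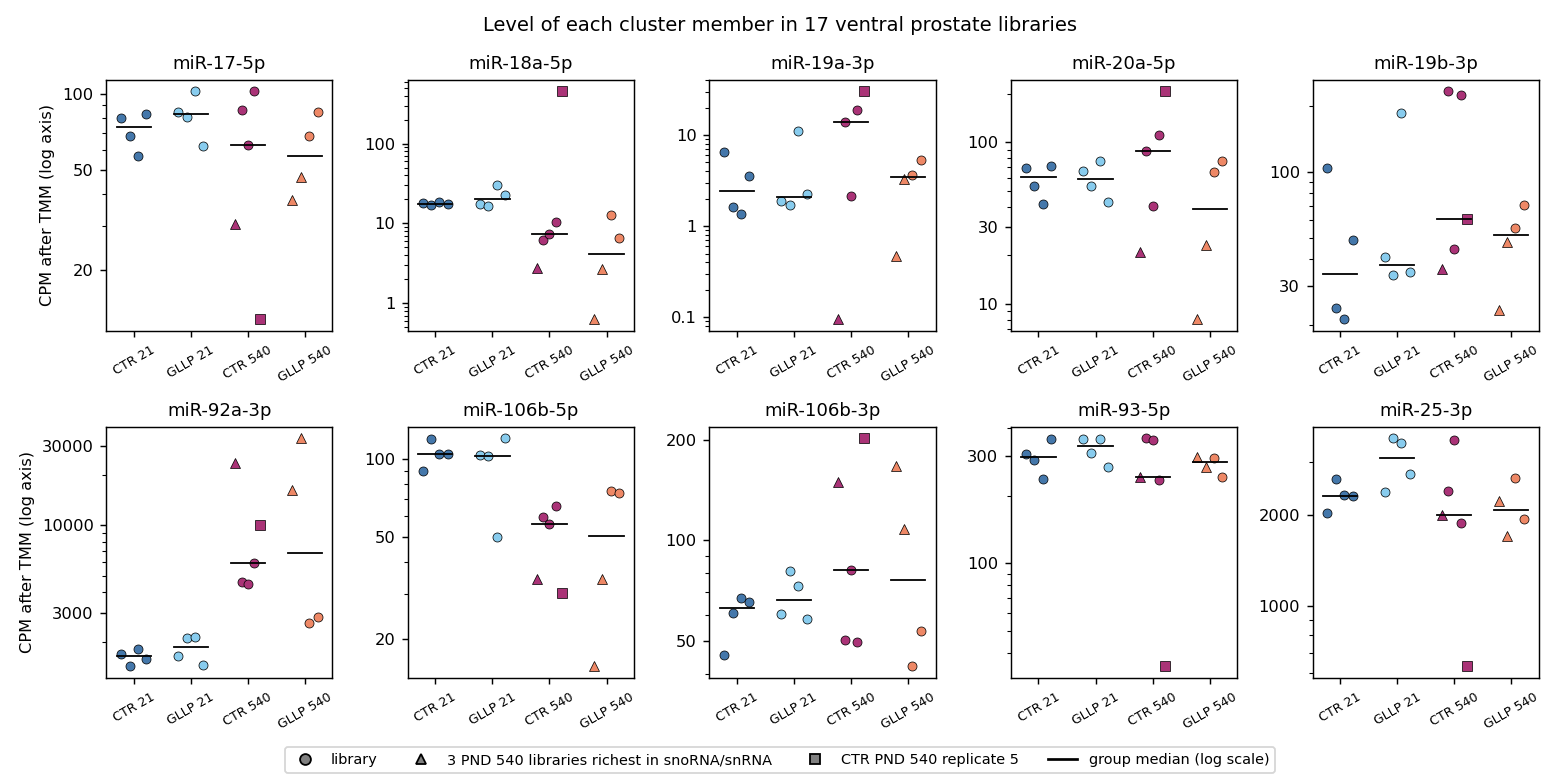
Each panel shows 1 member in the 17 libraries, as CPM after TMM on a log axis, by diet group and age, with triangles for the 3 PND 540 libraries richest in snoRNA and snRNA, a square for CTR replicate 5 of PND 540 and bars for group medians. miR-92a-3p is above its PND 21 range (1434 to 2150 CPM) in all 9 older libraries, and miR-18a-5p is below its PND 21 range in all of them but the square.

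Spread between libraries was wider at PND 540. The SD of log2 level over libraries was between 0.22 and 1.07 for the 10 members at PND 21 and between 0.69 and 2.51 at PND 540. The median SD over all tested miRNAs was 0.43 and 1.16, so the members followed the general pattern. At PND 21 the widest spreads were those of miR-19b-3p (1.07) and miR-19a-3p (1.03), and at PND 540 those of miR-18a-5p (2.51) and miR-19a-3p (2.26).

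The scaling of the libraries set the absolute direction of several members but hardly their place among miRNAs. The median change of all 467 tested miRNAs was 0.27 with TMM, -0.20 with DESeq2's size factors, -0.40 with TMM over all small RNA entries and -1.28 with total miRNA counts alone. Relative to that median, miR-92a-3p was at 2.47, 2.59, 2.26 and 2.77 log2 units in the same order. miR-106b-5p was at -1.28, -1.25, -1.24 and -1.34. miR-17-5p stayed between -0.68 and -0.59, miR-93-5p between -0.58 and -0.47 and miR-25-3p between -0.65 and -0.55. The log2 fold change of miR-106b-3p turned negative with TMM over all small RNA entries and with total counts, and that of miR-19a-3p with total counts. miR-18a-5p, miR-20a-5p and miR-19b-3p, whose log2 fold changes were positive with TMM and negative with the other 3 scalings, were at -0.26 to 0.01, -0.33 to -0.08 and 0.07 to 0.22 relative to the median. With total counts alone, 7 members passed the test, 1 higher and 6 lower, where 5.78% of all tested miRNAs were called higher and 54.4% lower. On that scale all 9 PND 540 libraries lay below all PND 21 libraries for miR-17-5p (5.04 to 50.8 against 95.2 to 189 CPM), miR-106b-5p (11.9 to 48.6 against 91.5 to 248 CPM), miR-93-5p (13.8 to 275 against 399 to 728 CPM) and miR-25-3p (248 to 2078 against 2812 to 6397 CPM), as did 33% of the tested miRNAs.

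**Figure D4:**
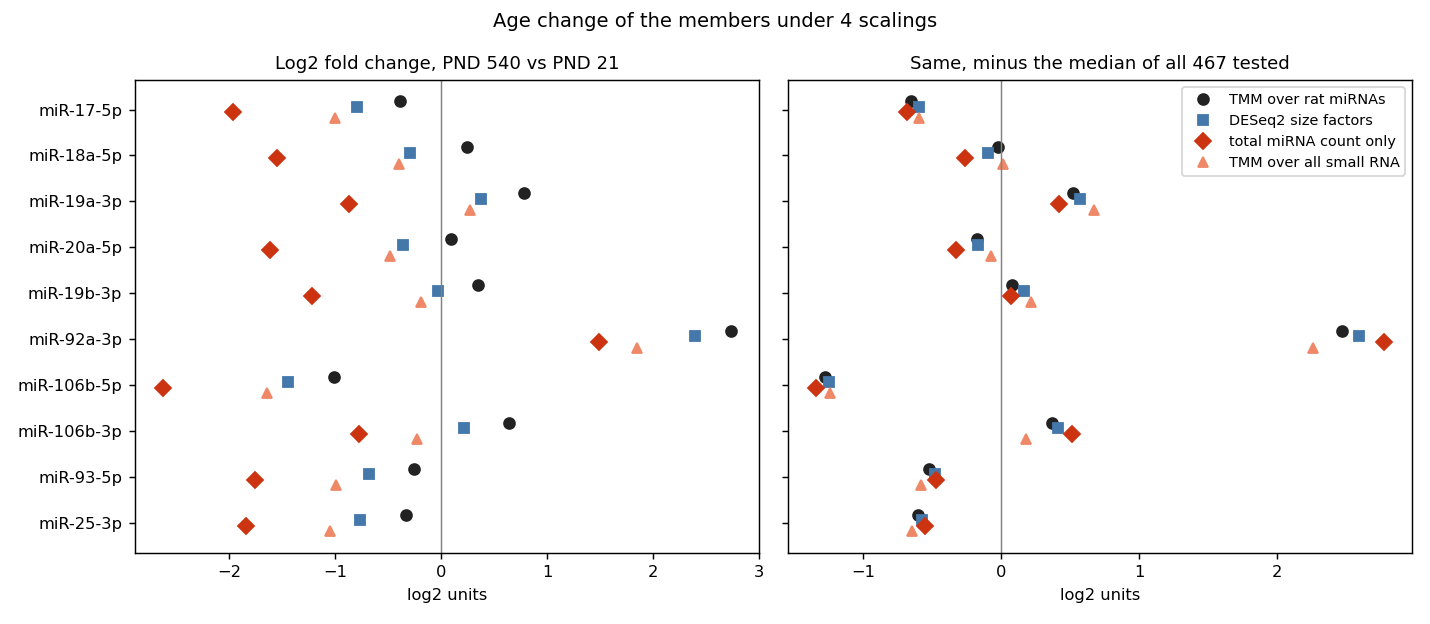
The left panel shows the log2 fold change of each member between PND 540 and PND 21 under 4 scalings, and the right panel the same values minus the median of all 467 tested miRNAs under that scaling. The 4 markers of a member spread over more than 1 log2 unit on the left and close up on the right, where miR-92a-3p stays between 2.26 and 2.77 and miR-106b-5p between -1.34 and -1.24.

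Ratios of 2 members within a library need no scaling, and 6 were compared. They set single members against each other, not whole clusters. All were between seed partners of the clusters except the ratio of the arms of the miR-106b hairpin. The ratio of miR-92a-3p to miR-25-3p, the seed partners of the first and the second cluster, was between 0.532 and 0.837 in the 8 PND 21 libraries. In the older CTR libraries, in replicate order, it was 11.8, 1.91, 1.25, 3.15 and 15.99, and in the older GLLP libraries 7.29, 19.4, 0.978 and 1.45. The ages did not overlap. The mean log2 ratio rose by 2.63, a 6.19-fold change (exact permutation test, p = 0.000288). Of all 108811 pairs of tested miRNAs, 25.5% did not overlap between ages and 59.9% had an exact p under 0.05. Over the 5 PND 540 libraries left without the 3 rich in snoRNA and snRNA and without CTR replicate 5, the ratio was between 0.978 and 3.15 and still did not overlap with PND 21. The 25.5% is for all older libraries. The share of pairs without overlap for these 5, a set chosen after seeing the data, is not given here.

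As a share of the counts of the 10 members together, miR-92a-3p took between 30.3% and 38.7% of a library at PND 21 and between 44.3% and 93.7% at PND 540. miR-25-3p took between 45.6% and 57.0% at PND 21 and between 4.82% and 45.3% at PND 540. So miR-25-3p had the larger count of the pair in all 8 younger libraries, and miR-92a-3p in 8 of the 9 older ones.

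Ratios across the AAAGUGC seed were less separated. miR-20a-5p to miR-106b-5p changed by 0.87 in mean log2 ratio (exact permutation test, p = 0.0661) and miR-17-5p to miR-106b-5p by 0.53 (exact permutation test, p = 0.122), and both pairs overlapped between ages. Against miR-93-5p the changes were -0.13 for miR-17-5p (exact permutation test, p = 0.588) and 0.21 for miR-20a-5p (exact permutation test, p = 0.819). The PND 540 library sets went opposite ways and each passed. With those numbered 3 to 7 alone the changes were -0.59 for miR-17-5p and -1.07 for miR-20a-5p (exact permutation test, p = 0.00466 and 0.00777), and with those numbered 21 to 24 alone they were 0.44 and 1.81 (exact permutation test, p = 0.0182 and 0.00404). At PND 21 the ratio of miR-17-5p to miR-93-5p was narrow, between 0.233 and 0.288, and at PND 540 it was between 0.127 and 0.438. miR-20a-5p to miR-93-5p was between 0.161 and 0.229 at PND 21 and between 0.0278 and 0.472 at PND 540, apart from 5.9 in CTR replicate 5.

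The 2 arms of the miR-106b hairpin were compared in the same way. The ratio of miR-106b-3p to miR-106b-5p was between 0.484 and 0.789 in 7 PND 21 libraries and 1.46 in GLLP replicate 3. The older CTR libraries had ratios of 4.34, 0.845, 1.46, 0.753 and 6.63 in replicate order, and the older GLLP libraries 10.5, 3.16, 0.561 and 0.726. The mean log2 ratio rose by 1.56 (exact permutation test, p = 0.0183), and the ages overlapped. The high values were in the 3 libraries rich in snoRNA and snRNA and in CTR replicate 5, and without the 3 the change was 0.83 and without all 4 it was 0.33, neither of which passed the exact permutation test. Over the 6 ratios, the Benjamini-Hochberg adjusted exact p was 0.00173 for miR-92a-3p to miR-25-3p, 0.055 for the arms of miR-106b and 0.132 for miR-20a-5p to miR-106b-5p, so the first alone stayed under 0.05.

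**Figure D5:**
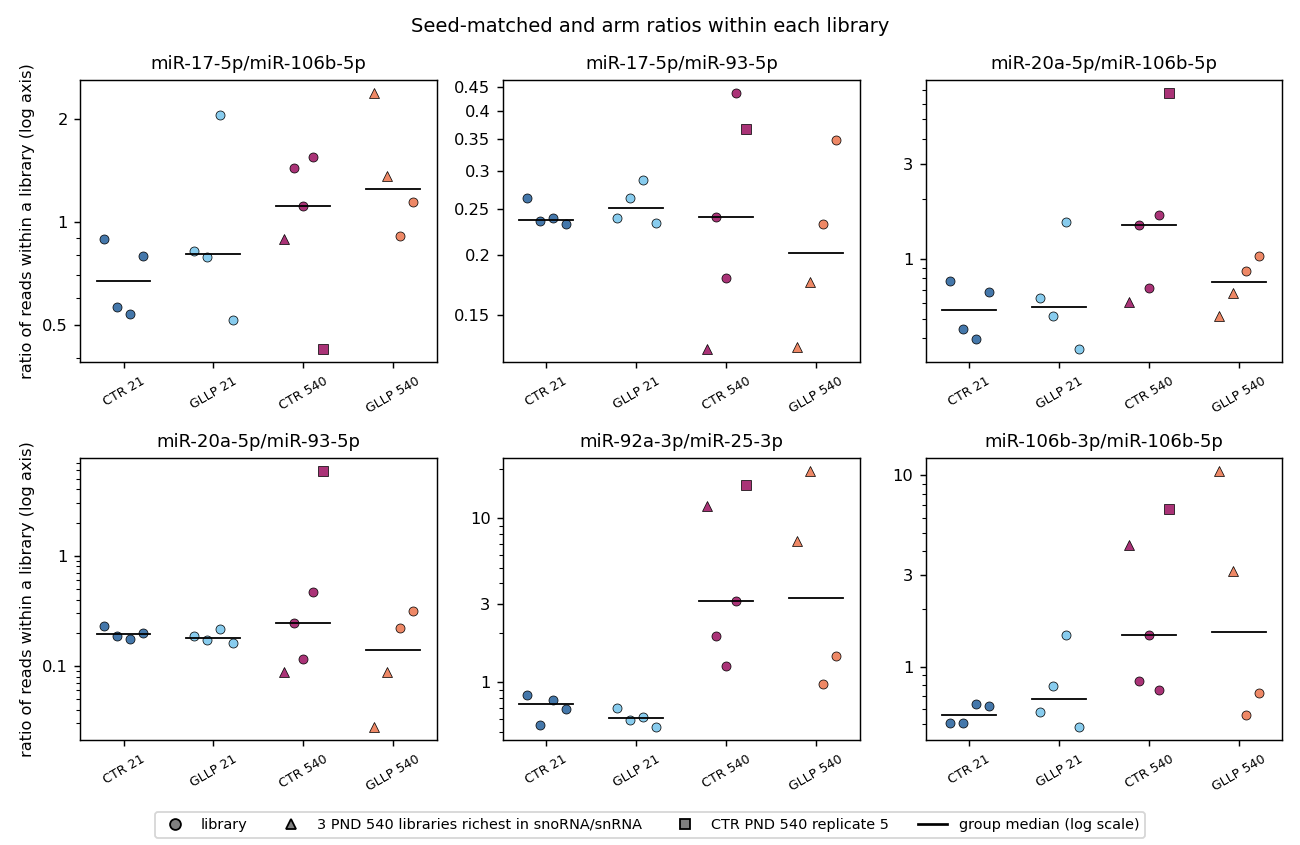
Each panel shows 1 of the 6 ratios in each of the 17 libraries, as the ratio of reads on a log axis, with marker shapes and median bars as in the plot of levels. Only for miR-92a-3p to miR-25-3p do the ages separate, at 0.532 to 0.837 against 0.978 to 19.4.

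Within each diet group the age changes of both called members kept their direction, but the calls depended on the libraries and the scaling. miR-92a-3p rose by 2.57 on the log2 scale within CTR (SE 0.69, adjusted p = 0.00644, edgeR) and by 2.90 within GLLP (SE 0.72, adjusted p = 0.00357, edgeR). The call within CTR was lost without CTR replicate 1 of PND 540 (1.46, adjusted p = 0.0946, edgeR) and with no scaling factor (1.16, adjusted p = 0.238), and held in 22 of 24 alternatives. Within GLLP the value was 0.31 without the 3 libraries rich in snoRNA and snRNA (adjusted p = 0.511, edgeR), which there are replicates 1 and 2, and 0.33 with the libraries numbered 21 to 24 alone (adjusted p = 0.369). It was 1.83 with no scaling factor (adjusted p = 0.0813), and the call held in 19 of 23 alternatives. It was the single member called higher within each diet, where 20.8% and 19.3% of the 467 tested miRNAs were called higher. miR-106b-5p had -1.09 within CTR (adjusted p = 0.0554) and -0.92 within GLLP (adjusted p = 0.128), neither of which passed edgeR's test, against a background of 18.4% and 19.5% called lower. It was called lower within CTR in 15 of 24 alternatives and within GLLP in 8 of 23. The interaction of age and diet was 0.32 for miR-92a-3p (95% interval -1.60 to 2.25) and 0.17 for miR-106b-5p (95% interval -1.17 to 1.51), and its adjusted p was 1.0 for both in edgeR. No miRNA was called in the interaction (0 of 467, with 6.85% at an unadjusted p under 0.05).

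No member passed the test for maternal diet at PND 21. The background was 0% of 439 tested miRNAs called by edgeR's adjusted p, with 20.3% at an unadjusted p under 0.05, and DESeq2 called 25. None of the 10 members had an unadjusted p under 0.05. Their log2 fold changes between GLLP and CTR were between -0.21 for miR-106b-5p (95% interval -0.81 to 0.40) and 0.52 for miR-19b-3p (95% interval -0.84 to 1.87). miR-25-3p came closest, at 2026, 2629, 2338 and 2308 CPM in the CTR libraries and 2381, 3601, 3480 and 2747 CPM in the GLLP libraries, in replicate order. The groups overlapped, and the log2 fold change was 0.32 (95% interval -0.08 to 0.72, adjusted p = 0.34, edgeR). The exact permutation p was 0.0571, where 4 against 4 libraries can reach 0.0286. At this age the summed prostate epithelium miRNAs were lower in GLLP (14958 to 27308 CPM) than in CTR (31064 to 38165 CPM), though none of the 7 was called. The part of cell makeup in the members' diet values was not tested.

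Nor did any member pass the adjusted test for maternal diet at PND 540, with 0% of 352 tested miRNAs called by edgeR, 1.42% at an unadjusted p under 0.05, and 1 called by DESeq2 and 1 by limma. For miR-92a-3p, 2 GLLP libraries lay below the CTR range, 1 within it and 1 above it, and its log2 fold change of 1.03 (95% interval -0.93 to 2.99, adjusted p = 0.995, edgeR) turned to -0.96 without the 3 libraries rich in snoRNA and snRNA. Of the 10 members 1 had an unadjusted p under 0.05, miR-18a-5p, at -3.42 (95% interval -6.58 to -0.26, adjusted p = 0.995, edgeR), and without CTR replicate 5 it was -0.11.

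The other arms and the X chromosome paralogs completed the family. Of 8 other arms listed, all were in the files, 6 passed the filter, and 1, miR-92a-1-5p, was called between ages. Of 8 X cluster miRNAs listed, 7 were in the files and 2 passed the filter, miR-20b-5p at -0.90 and miR-363-3p at -0.73 on the log2 scale, neither of which passed the test (adjusted p = 0.203 and 0.112, edgeR). miR-17-1-3p, the other arm of the first chromosome 15 hairpin, was between 5.31 and 18.5 CPM at PND 21 and between 1.05 and 12.8 CPM at PND 540, with a log2 fold change of -0.86 (adjusted p = 0.0958, edgeR). So of the tested other arms of the chromosome 15 hairpins, miR-92a-1-5p was called higher after TMM scaling, and miR-17-1-3p, miR-18a-3p and miR-20a-3p did not pass the test. The other arms miR-19a-5p and miR-19b-1-5p did not pass the filter.

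The miRNAs whose centred log2 profile over the 17 libraries lay closest to the mean profile of each cluster were found by mean absolute difference. Members, other arms, X paralogs and seed relatives were left out of this search and of its medians. For miR-17-92 the closest were miR-9a-5p (0.38), miR-30e-5p (0.40) and miR-30e-3p (0.42), against a median of 1.07 over the remaining tested miRNAs. For miR-106b-25 they were miR-224-5p (0.22), miR-103-3p (0.28) and miR-107-3p (0.28), against a median of 1.0. Of the clusters' own members, miR-25-3p lay at 0.20 from its cluster's mean profile and miR-92a-3p at 1.29 from its own, the farthest of the 10. Each member is itself part of that mean, of 4 members for miR-25-3p and 6 for miR-92a-3p. The members' distances are therefore not on equal terms with those of the miRNAs outside the clusters, nor between the clusters.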

How the data were processed

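Small RNA of the VP was sequenced in 17 libraries. For the PND 540 libraries the authors describe adapter trimming, a quality filter (Phred 20) and alignment with STAR to the Rnor_6.0 build. The steps for the PND 21 libraries are not given in the sources used here and were taken to be the same. The deposited values are raw counts per small RNA entry, whole and not normalized. The miRNA counts were between 6262564 and 28642435 per library, and intervals cover spread between these libraries only. Counts of rat miRNAs were filtered by edgeR's default rule, scaled by TMM and tested with edgeR 4.0.16 (quasi-likelihood F test) in R 4.3.3, with Benjamini-Hochberg adjustment. One fit of all 17 libraries gave age and interaction, and separate fits gave diet at each age. Exact two-sided permutation tests used log2 CPM or log2 ratios with a prior count of 2. DESeq2 1.42.0 and limma 3.58.1 served as alternatives, beside other scalings, filters, a GC offset, and leaving out libraries. Groups came from the authors' labels. The rule for the members uses their names alone, but it and the lists, including markers, other arms, X paralogs and seed relatives, were chosen with earlier results of these data known. Beyond the members, the miRNAs named were those lists and the 3 closest in profile to each cluster. Leaving out 4 PND 540 libraries together, and leaving out 3 or 4 without a scaling factor, were added after seeing the data. Each library was taken as 1 animal, and replicate numbers were not used to pair libraries in the main fits. Names, sequences and GRCr8 positions came from RefSeq, while the counts were made on another build, so no position was carried over. The fit was also run on simulated counts, with the same dispersion at both ages and library sizes without TMM factors. That run cannot show how the fit handles the wider spread at PND 540 or TMM factors that differ by age.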

Additional observations from a re-analysis of the deposited data

Results flagged for a closer look

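Levels and ratios were examined in 64 sets, each of the 4 or 5 libraries of a group. In them 4 values stood apart from the rest of their group by Dixon's criterion at 95%, where chance gives about 1 in 20, or 3.2. All came from GLLP replicate 3 of PND 21 or CTR replicate 5 of PND 540. The sets share members and libraries and are not independent. miR-19a-3p and miR-19b-3p were both high in GLLP replicate 3 of PND 21, where the gap to the next library took 0.847 and 0.89 of the group's range of log2 level. That library held 1.26% of counts on snoRNA and snRNA, the most at PND 21, and the fewest counts of all, 6369707. It was also the one with the lowest miR-106b-5p at that age. miR-18a-5p was high (0.747 of the range) and miR-93-5p low (0.816) in CTR replicate 5 of PND 540, the library that also had the highest miR-20a-5p and the lowest miR-17-5p and miR-25-3p of its age.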

How the results depend on the processing

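miR-106b-5p was called lower with age under all 34 alternatives, and the ratio of miR-92a-3p to miR-25-3p rose and passed the exact permutation test under all 25 of its own, by 1.30 to 3.01 on the log2 scale. miR-92a-3p was called higher with age under 32 of 34. Precision was limited for miR-19a-3p by its low counts and for the diet comparisons by 4 or 5 libraries a group. For the values below, which moved, changed call or turned in direction, the cause was not tested, except that fewer miRNAs were tested under the stricter filter. Counts of members called are mostly given below without the share of all tested miRNAs called in the same setting. With age over all libraries that share was 30% higher and 24% lower, and with no scaling factor 5.78% higher and 54.4% lower. A count of members alone therefore does not set them apart from other miRNAs.

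By scaling, the log2 fold change with age of miR-18a-5p, miR-20a-5p and miR-19b-3p was -0.29, -0.36 and -0.03 with DESeq2's size factors, and -0.39, -0.48 and -0.19 with TMM over all small RNA entries, where that of miR-106b-3p was -0.22 and 5 members were called. With no scaling factor 7 members were called, and miR-18a-5p, miR-19a-3p, miR-20a-5p, miR-19b-3p and miR-106b-3p were at -1.54, -0.86, -1.61, -1.21 and -0.77. With no filter miR-18a-5p and miR-20a-5p were at -0.23 and -0.26. With at least 10 counts in every library, 131 of 254 miRNAs and 4 of 8 members were called with age. There miR-20a-5p and miR-19b-3p were at -0.44 and -0.12. DESeq2's Wald test called 4 members and gave miR-18a-5p, miR-20a-5p and miR-19b-3p -0.29, -0.36 and -0.031. limma gave miR-18a-5p and miR-20a-5p -1.64 and -0.36, and an interaction of -0.15 for miR-92a-3p. With the GC offset miR-20a-5p was at -0.0073 and its log2 ratio to miR-106b-5p rose by 0.89, which then passed the exact permutation test.

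Replicate numbers were not used to pair libraries in the main fits. Same-numbered libraries of the 2 ages within a diet had a mean correlation of deviations of -0.095, with 0 of 8 over 0.1, against 0.027 for other numbers. Between diets it was 0.0048 at PND 21, against -0.0030 for other numbers. At PND 540 it was 0.348, where 3 of 4 were over 0.1, against -0.082 for other numbers, where 5 of 16 were. Whether the numbers pair libraries between diets at PND 540 was not tested further. CTR replicate 5 of PND 540 has no partner, so the fits with a replicate block also take it out of the age change, and both choices act at once. With the replicate block miR-18a-5p and miR-20a-5p were at -1.95 and -0.41 with age, against -1.69 and -0.17 without that library and with no block, the interaction of miR-106b-5p was -0.054, the log2 ratio of miR-20a-5p to miR-93-5p changed by -0.39, and that of the arms of miR-106b by 1.33, no longer past the test. Both ratio changes had the same size without that library and with no block, where the arms passed (exact permutation test, p = 0.0277). With the GC offset and the replicate block together miR-18a-5p, miR-19a-3p and miR-20a-5p were at -1.95, -0.0088 and -0.43, and the interaction of miR-106b-5p was -0.039.

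Without the 3 PND 540 libraries rich in snoRNA and snRNA, miR-106b-3p was at -0.34 with age, miR-92a-3p at -0.96 for diet at PND 540 and -1.09 for the interaction. The log2 ratios of miR-17-5p and miR-20a-5p to miR-93-5p changed by 0.21 and 1.15, that of miR-20a-5p to miR-106b-5p by 1.30 and that of the arms by 0.83. Without those and CTR replicate 5, 6 members were called, miR-18a-5p and miR-106b-3p were at -1.53 and -0.61 with age, miR-18a-5p and miR-92a-3p at 0.31 and -0.80 for diet at PND 540, and miR-92a-3p at -0.87 for the interaction. The ratios of miR-17-5p to miR-93-5p, miR-20a-5p to miR-106b-5p and the arms then changed by 0.14, 0.87 and 0.33. With no scaling factor as well, where the share of all tested miRNAs called is not given here, 7 members were called without the 3 and 8 without the 4. miR-18a-5p, miR-19a-3p, miR-20a-5p, miR-19b-3p, miR-92a-3p and miR-106b-3p were then at -1.05, -0.55, -1.22, -1.07, -0.53 and -1.73 without the 3, and at -2.91, -0.75, -1.41, -0.94, -0.65 and -2.01 without the 4.

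With the PND 540 libraries numbered 3 to 7 alone, 5 members were called, miR-18a-5p, miR-19a-3p, miR-20a-5p and miR-19b-3p were at -2.89, -0.36, -1.26 and -0.13, and the interaction of miR-106b-5p was -0.25. The ratio of miR-17-5p to miR-106b-5p changed by 0.79, and those of miR-17-5p and miR-20a-5p to miR-93-5p by -0.59 and -1.07. With those numbered 21 to 24 alone, miR-106b-3p was at -0.15 with age, miR-92a-3p at -1.17 for diet at PND 540 and -1.44 for the interaction, in which 6 miRNAs were called. The ratios of miR-17-5p and miR-20a-5p to miR-93-5p changed by 0.44 and 1.81, that of miR-20a-5p to miR-106b-5p by 1.57 and that of the arms by 0.87.

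Within CTR, 1 member was called with age. The count was 2 with DESeq2's size factors, TMM over all small RNA entries, no filter, DESeq2's Wald test, limma or the replicate block. It was also 2 with the GC offset, without the 3 libraries or with the stricter filter (80 of 254 miRNAs called, 8 members tested). It was 3 with the GC offset and block together, without the 4 libraries or with the set numbered 3 to 7, 4 with no scaling factor and 5 with the set numbered 21 to 24. Within GLLP, 1 member was called. The count was 2 with DESeq2's size factors or Wald test, the replicate block or the GC offset. It was also 2 with the stricter filter (73 of 254 miRNAs called, 8 members tested). It was 3 with the GC offset and block together or without the 4 libraries. With the set numbered 3 to 7 it was 5 (293 of 505 miRNAs called). With no scaling factor it was 7, and without the 3 libraries or with the set numbered 21 to 24 it was 0. For diet, DESeq2 called 25 miRNAs at PND 21 and 1 at PND 540, and limma 1 at PND 540.

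Leaving out 1 library at a time, the age change of miR-18a-5p ranged from -1.69 to 0.40 and that of miR-20a-5p from -0.46 to 0.19. From 1 to 2 members were called within CTR and from 1 to 2 within GLLP. Diet at PND 21 called 0 to 2 miRNAs and ranged from -0.42 to 0.081 for miR-106b-5p and from -0.36 to 1.15 for miR-19b-3p. Diet at PND 540 ranged from -0.28 to 1.88 for miR-92a-3p. The interaction ranged from -0.24 to 1.77 for miR-92a-3p and from -0.16 to 0.71 for miR-106b-5p. The ratios of miR-17-5p and miR-20a-5p to miR-106b-5p changed by 0.40 to 0.73 and 0.54 to 1.06, and that of miR-20a-5p to miR-93-5p by -0.39 to 0.58.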
